A study of Mus musculus with 12 samples.

Results

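The genes described here are 10 components and read-outs of fibroblast growth factor (FGF) signalling in the mouse lens. They are the receptors *Fgfr1*, *Fgfr2* and *Fgfr3*, the ETS transcription factor genes *Etv1*, *Etv4* and *Etv5*, and the feedback inhibitors *Dusp6*, *Spry1*, *Spry2* and *Spry4*. They were picked by gene symbol, with earlier results of these data known, from the 55487 gene identifiers of the count table. RNA from whole lenses at P7 (an age of 7 days) was sequenced in 12 libraries, 3 from each of 4 genotypes, and the study's methods give each library as RNA pooled from 4 male and 4 female lenses. The mutant mice carried p.I65M, made by CRISPR/Cas9 editing of the gene for the calcium-permeable channel TRPM3, on 1 allele (*Trpm3*-I/M, here I/M) or both (*Trpm3*-M/M, here M/M). The knockout mice (*Trpm3*-KO, here KO) had *Trpm3* disrupted by homologous recombination and were recovered from frozen embryos. Wild-type (WT) lenses were the controls, all mice were kept on the C57BL6/J background, and every genotype carries its allele in all cells of the body rather than in the lens alone. The comparisons ask how the mutant channel and the loss of the channel each alter lens gene expression.

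FGFs bind receptor tyrosine kinases together with heparan sulfate, and the activated receptor signals through the adaptor FRS2, Ras, Raf and MEK to the ERK kinases. In the lens, FGF from the vitreous is known for driving epithelial cells to elongate and differentiate into fiber cells. ERK activity turns on the ETS factors ETV1, ETV4 and ETV5, and it also turns on its own brakes, among them the ERK phosphatase DUSP6 and the Sprouty proteins. The RNA levels of these genes are often read as an output of the pathway, but neither ERK phosphorylation nor protein was measured in these libraries.

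The total of estimated counts ranged from 56162182 to 57481006 in WT, from 56945063 to 60992877 in KO, from 68589080 to 82090262 in I/M and from 65454183 to 73875066 in M/M libraries. Levels are given as CPM (the count scaled to a common library size) after scaling with TMM factors, which correct for a few very abundant genes taking a different share of the reads. In WT libraries the crystallin genes took 61.0% to 63.9% of the counts, against 49.4% to 51.3% in M/M libraries. *Trpm3* itself was at 268.5 ± 17.3 CPM in WT, 95.3 ± 5.02 in KO, 386.6 ± 23.4 in I/M and 475.2 ± 8.01 in M/M lenses (mean ± SD, n = 3 each). The library labelled I/M replicate 3 went against its description as a pool of both sexes, with a count of 5 for *Xist* where the other 11 libraries held 2182 to 16856. Leaving it out moved none of the 36 tests of the fit described next (9 members in 4 comparisons) across the threshold. The study calls the 3 libraries of a genotype biological replicates, and the sources used here do not say whether the lenses of different libraries came from different mice or litters, so p-values measure the spread between these libraries, part of which may be technical.

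The positions of the 10 genes are given on the GRCm38 build, from the GENCODE annotation. The receptor genes lie at chr8:25513654-25575718 (*Fgfr1*), chr7:130162451-133123350 (*Fgfr2*) and chr5:33721674-33737068 (*Fgfr3*). The ETS factor genes lie at chr12:38779380-38870484 (*Etv1*), chr11:101769742-101785371 (*Etv4*) and chr16:22381309-22439719 (*Etv5*). The inhibitors lie at chr10:99263231-99267489 (*Dusp6*), chr3:37639947-37644598 (*Spry1*) and chr14:105891947-105896819 (*Spry2*), and that of *Spry4* is given with its levels. Exons of 4 of them overlap exons of another annotated gene, and no source states that strand was used in counting, so reads from those stretches cannot be assigned with certainty. The shared stretch was 164 bases for *Fgfr1*, 314 for *Fgfr2* (with *Ctbp2*, on the same strand), 998 for *Fgfr3* and 710 for *Spry1*.

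The upstream sequences below show where 3 members that rose in M/M lenses, *Dusp6*, *Etv5* and *Spry2*, and 1 that fell, *Fgfr2*, carry the core letters that ETS factors bind. Each is the 250 bases before an annotated transcript start, from RefSeq on GRCm38.p6, printed 5′ to 3′ on the gene's own strand. Capitals mark GGAA, the ETS core, and TTCC, the same core on the other strand. The intervals are chr10:99262981-99263230 for *Dusp6* (forward strand), chr16:22438369-22438618 for the downstream start of *Etv5* (reverse), chr14:105896820-105897069 for *Spry2* (reverse) and chr7:130266809-130267058 for *Fgfr2* (reverse).
Dusp6: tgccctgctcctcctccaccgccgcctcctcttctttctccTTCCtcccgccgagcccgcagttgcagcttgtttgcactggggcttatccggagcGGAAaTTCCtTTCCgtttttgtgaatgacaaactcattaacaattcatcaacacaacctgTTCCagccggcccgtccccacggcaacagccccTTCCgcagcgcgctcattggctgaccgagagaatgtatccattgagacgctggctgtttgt
Etv5: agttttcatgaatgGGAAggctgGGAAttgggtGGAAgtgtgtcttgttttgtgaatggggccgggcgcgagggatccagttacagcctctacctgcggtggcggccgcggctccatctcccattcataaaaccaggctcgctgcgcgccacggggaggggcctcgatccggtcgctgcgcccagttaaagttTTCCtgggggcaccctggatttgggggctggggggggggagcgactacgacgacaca
Spry2: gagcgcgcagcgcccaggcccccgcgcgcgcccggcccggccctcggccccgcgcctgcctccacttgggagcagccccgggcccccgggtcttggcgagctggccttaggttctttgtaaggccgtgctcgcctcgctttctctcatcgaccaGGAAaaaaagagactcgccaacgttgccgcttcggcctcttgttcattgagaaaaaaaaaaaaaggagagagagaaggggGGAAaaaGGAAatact
Fgfr2: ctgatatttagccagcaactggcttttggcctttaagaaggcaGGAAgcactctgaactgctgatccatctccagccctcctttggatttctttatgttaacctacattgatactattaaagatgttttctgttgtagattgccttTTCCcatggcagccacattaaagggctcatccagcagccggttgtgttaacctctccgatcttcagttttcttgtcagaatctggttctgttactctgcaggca
The *Dusp6* window held 6 cores, and 3 of them follow each other with a single base between. The *Etv5* window held 4 cores, the *Spry2* window 3 and the *Fgfr2* window 2. RefSeq gave 10 windows for 7 of the members, and the 4 printed were taken from the 5 that lie wholly outside annotated exons. The upstream start of *Etv5* had no core in its 250 bases (0), the windows of *Fgfr3*, which also fell, had 1 and 5, that of *Spry1* had 1, and those of *Etv1* had 2 and 1, so the number of cores did not sort members that rose from members that fell. The counts stand beside a median of 3 cores over 32851 windows of the same length upstream of annotated starts, 93.4% of which held at least 1, so the core alone does not set these genes apart. The AP-1 site TGACTCA, searched on both strands, was in none of the 4 windows and in 4.46% of all windows, and the CArG box bound by serum response factor was in none of them and in 1.47% of all windows. A match or its absence describes these letters only, and binding was not measured.

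Levels of different genes can be set side by side only per length of transcript, so the order in WT lenses is given in CPM per kilobase of annotated exon. *Fgfr3* was the highest of the 10 at 38.4 ± 0.650, followed by *Spry1* at 13.1 ± 1.09. *Etv5* (7.82 ± 0.196), *Spry2* (6.99 ± 0.346), *Fgfr2* (5.71 ± 0.193) and *Fgfr1* (5.23 ± 0.505) came next. *Dusp6* (1.14 ± 0.249) and *Etv1* (0.751 ± 0.0758) were lower, and *Spry4* (0.182 ± 0.0122) and *Etv4* (0.103 ± 0.0267) were the lowest. No neighbours in this order overlapped in their 3 libraries. In M/M lenses *Etv5* reached 33.1 ± 0.697 CPM per kilobase, above *Fgfr3* at 26.2 ± 1.47.

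**Figure D1:**
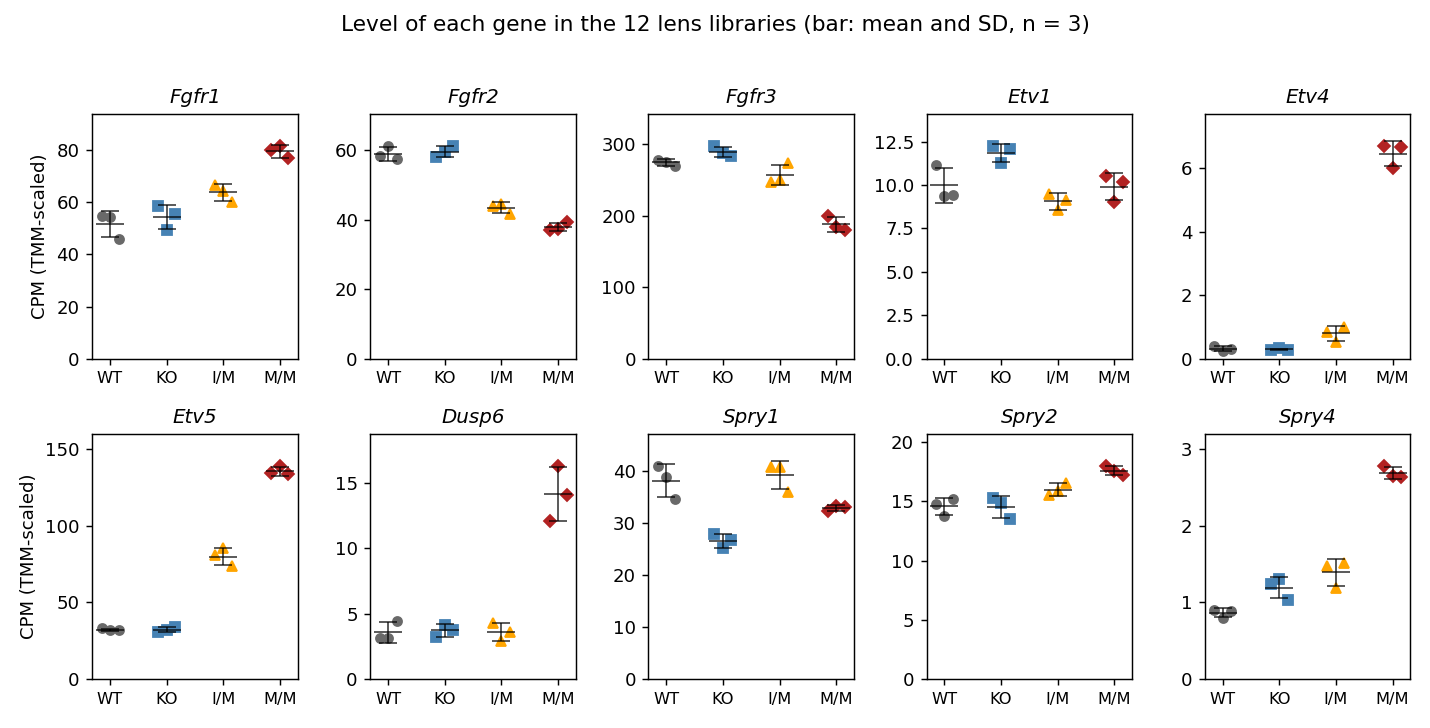
TMM-scaled CPM (linear axis from 0, set separately for each gene) of the 10 genes in the 12 libraries, by genotype. Points are libraries and bars the mean ± SD of 3. *Etv4*, *Etv5*, *Dusp6* and *Spry4* stand clear of all other genotypes in M/M, *Etv5* is also raised in I/M, and *Spry1* is lowest in KO.

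Genes were tested with edgeR's quasi-likelihood test in one fit of the 12 libraries, restricted to the 8984 genes with at least 5 CPM in at least 3 libraries. Of the 10 genes, 9 passed this filter. *Etv4* and *Dusp6* reached 5 CPM in the 3 M/M libraries alone, so passing already required them to be higher there, and *Spry4* reached it in no library. The counts over all 10 genes are therefore taken from a second fit of the 12639 genes with at least 1 CPM in at least 3 libraries, where *Etv4* again passed mainly through M/M. *Etv4* and *Spry4* reached 1 CPM in no WT library, so passing this filter favoured a level above WT. In that fit 9 of the 10 genes differed between M/M and WT at an adjusted p of at most 0.05, where 60.7% of all genes tested did. The 9 were 6 higher, beside 30.0% of all genes, and 3 lower, beside 30.6%. At a fold change of at least 2 as well, 4 of the 10 passed, all higher, against 12.9% of all genes. *Etv4* and *Spry4* are among these 4, so that count is not independent of the filter. Between I/M and WT 5 of 10 passed (29.4% of all genes), 2 of them at 2-fold (5.25%). Between KO and WT 1 of 10 passed (4.05%). Between M/M and I/M 8 of 10 passed (48.8%), 2 of them at 2-fold (7.98%). Without I/M replicate 3 these counts were the same, except that 3 genes passed 2-fold between M/M and I/M, *Spry4* being the added gene at a log2 value of 1.00. The share past the adjusted p alone is thus high for genes in general in the mutant lenses, and the 3 comparisons with WT share the same WT libraries. Scaling by library size alone, without TMM factors, moved the median log2 fold change of all genes by 0.50 in M/M, 0.20 in I/M and 0.05 in KO lenses against WT. Fold changes below are relative to the TMM-scaled median. Under that other scaling the split in M/M over the 9 genes of the first fit was 7 higher and 1 lower, against 5 higher and 3 lower.

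**Figure D2:**
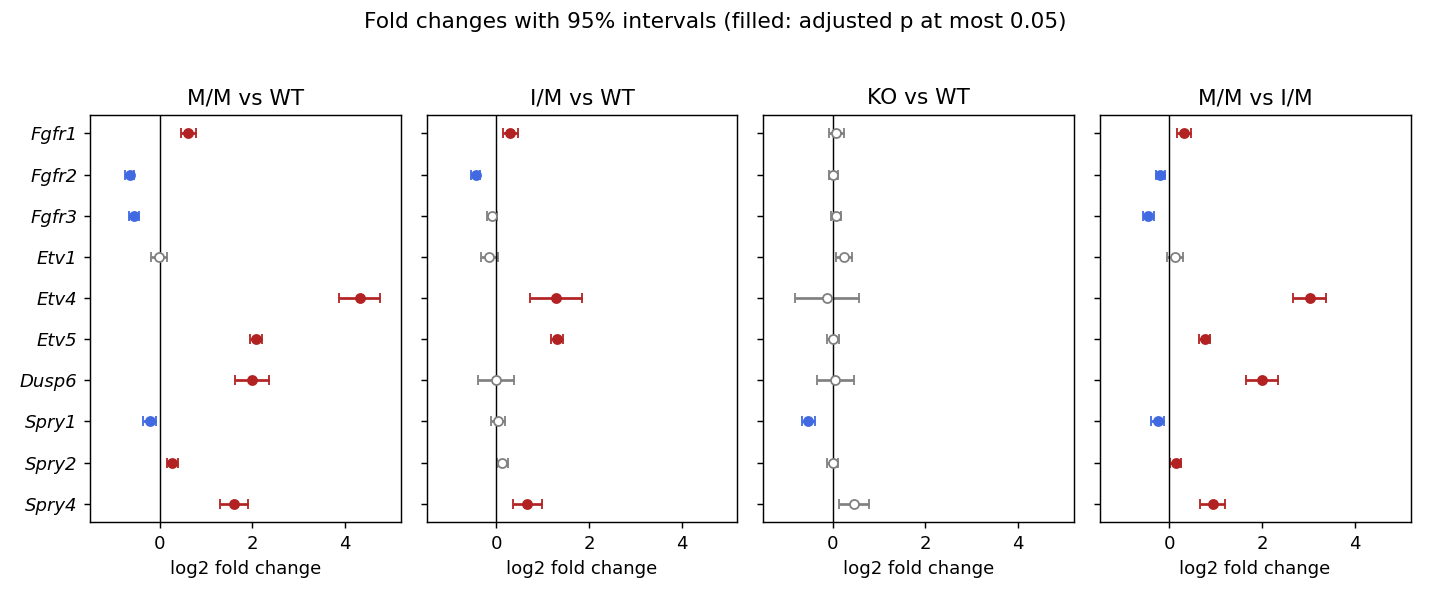
Log2 fold change (horizontal axis) with its 95% interval for each gene in the 4 comparisons, from the quasi-likelihood fits (*Spry4* from the fit with the lower filter). Filled red points were higher and filled blue points lower at an adjusted p of at most 0.05, and open points did not pass. *Etv4* in M/M lies farthest from 0, at 4.32, and *Spry1* is the filled point in KO.

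The 3 receptor genes moved in different directions in M/M lenses: *Fgfr1* rose, while *Fgfr2* and *Fgfr3* fell. FGFR1, FGFR2 and FGFR3 are the receptors known for lens fiber differentiation, with overlapping roles. *Fgfr1* was at 54.6, 54.4 and 45.9 CPM in WT, 58.4, 49.4 and 55.4 in KO, 66.5, 64.4 and 60.1 in I/M and 80.0, 81.5 and 76.8 in M/M libraries. The M/M libraries lay above those of every other genotype, and the I/M libraries above WT and KO. The log2 fold change against WT was 0.62 (SE 0.07, adjusted p = 8.16e-06) in M/M and 0.30 (SE 0.07, adjusted p = 0.00744) in I/M. M/M exceeded I/M by 0.32 (adjusted p = 0.00283), and KO differed from WT by 0.07 (95% interval -0.09 to 0.24).

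*Fgfr2* ran the other way, at 58.4, 61.2 and 57.4 CPM in WT and 58.1, 59.5 and 61.2 in KO libraries. It was at 44.0, 44.6 and 41.7 CPM in I/M and 37.1, 37.2 and 39.3 in M/M libraries. All 6 mutant libraries lay below all 6 WT and KO libraries, and those of M/M below those of I/M. The log2 fold change against WT was -0.64 (SE 0.05, adjusted p = 5.49e-08) in M/M and -0.44 (SE 0.05, adjusted p = 7.78e-06) in I/M, while that of KO was 0.02 (95% interval -0.08 to 0.11). The step from I/M to M/M was -0.20 (adjusted p = 0.00263) and turned to 0.11 with library-size scaling alone. *Ctbp2*, whose exon is partly shared, had a mean raw count of 1827 in WT and 3208 in M/M libraries. These counts are not scaled, and library totals and TMM factors (0.828 to 0.905 in WT, 1.22 to 1.27 in M/M) were larger in M/M. No change in the level of *Ctbp2* can be read from them, and the part of *Ctbp2* in the *Fgfr2* level was not tested.

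*Fgfr3*, the most abundant of the 3 receptors, was at 278.6, 275.9 and 269.5 CPM in WT, and at 297.6, 287.3 and 283.0 in KO libraries. It was at 247.0, 250.4 and 273.4 CPM in I/M and at 199.8, 183.6 and 180.1 in M/M libraries. The M/M libraries were below all others, whereas those of I/M overlapped WT. *Fgfr3* fell by 0.55 on the log2 scale in M/M against WT (SE 0.05, adjusted p = 8.02e-07) and by 0.45 against I/M (adjusted p = 1.07e-05). The difference from WT was -0.10 in I/M (adjusted p = 0.177, 95% interval -0.21 to 0.02) and 0.07 in KO (adjusted p = 0.489). With library-size scaling alone the fall in M/M against WT was -0.04 and did not pass (adjusted p = 0.501). In whole lenses, fewer cells that express a gene and less of its RNA per cell cannot be told apart.

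Of the 3 ETS factor genes, *Etv4* and *Etv5* rose in both mutant genotypes and *Etv1* did not pass the test in any comparison. ETV1, ETV4 and ETV5 form the PEA3 group of ETS factors and are known as transcriptional targets and effectors of FGF signalling. *Etv4* was low outside M/M, with counts of 12 to 21 in the WT, 15 to 18 in the KO and 44 to 70 in the I/M libraries, against 535 to 590 in M/M. In CPM it was at 0.413, 0.252 and 0.297 in WT, 0.280, 0.326 and 0.282 in KO, 0.849, 0.535 and 1.01 in I/M and 6.69, 6.01 and 6.66 in M/M. Every I/M library lay above every WT and KO library and far below every M/M library. The fold change in M/M was 19.9 against WT (log2 4.32, SE 0.21, adjusted p = 1.12e-09) and 8.15 against I/M (log2 3.03, SE 0.17, adjusted p = 1.77e-08). In I/M it was 2.44 against WT (log2 1.29, SE 0.26, adjusted p = 0.00185), and without I/M replicate 3 the log2 value was 1.09 (adjusted p = 0.00654). In KO lenses the log2 difference was -0.12, with a 95% interval from -0.82 to 0.58 that these low counts leave wide. *Etv4* entered this fit through the M/M libraries alone, so its p-values in M/M are not independent of that selection. Without a filter the log2 value in M/M against WT was 4.30.

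*Etv5* was far more abundant and changed with little spread between libraries. It was at 33.0, 31.6 and 31.6 CPM in WT and 31.0, 31.8 and 34.1 in KO libraries. It was at 80.6, 85.3 and 73.8 CPM in I/M and 134.2, 138.9 and 133.8 in M/M libraries. The groups fell into 3 separate levels, with WT and KO overlapping at the lowest. *Etv5* rose 4.22-fold in M/M (log2 2.08, SE 0.06, adjusted p = 9.45e-12) and 2.49-fold in I/M (log2 1.32, SE 0.06, adjusted p = 2.57e-09). M/M exceeded I/M by 1.70-fold (log2 0.76, adjusted p = 1.69e-07). The KO difference was 0.01 with a 95% interval of -0.12 to 0.13, so a change of the size seen in either mutant lies outside what these libraries allow.

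*Etv1* was at 11.1, 9.37 and 9.44 CPM in WT, 12.2, 11.3 and 12.1 in KO, 9.49, 8.53 and 9.12 in I/M and 10.5, 9.03 and 10.2 in M/M libraries. WT, I/M and M/M libraries overlapped, and the KO libraries lay just above those of WT. The log2 difference from WT was -0.01 in M/M (95% interval -0.19 to 0.16), -0.14 in I/M (-0.32 to 0.03) and 0.25 in KO (0.07 to 0.42, adjusted p = 0.123). The M/M value became 0.49 with library-size scaling alone, close to the 0.50 by which that scaling moved all genes. Without WT replicate 1, the highest WT library, the KO value was 0.33 and passed the threshold (adjusted p = 0.0363).

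*Dusp6*, which encodes the cytoplasmic phosphatase that inactivates ERK, rose in M/M lenses, while its I/M libraries overlapped those of WT. It was at 3.11, 3.11 and 4.46 CPM in WT, 3.20, 4.16 and 3.76 in KO, 4.25, 2.87 and 3.58 in I/M and 12.1, 16.3 and 14.1 in M/M libraries. The first 3 genotypes overlapped throughout, and every M/M library lay well above them. *Dusp6* rose 3.97-fold in M/M against WT (log2 1.99, SE 0.17, adjusted p = 2.76e-07) and 3.98-fold against I/M (log2 1.99, SE 0.16, adjusted p = 4.88e-07). The difference of I/M from WT was -0.003 with a 95% interval of -0.40 to 0.39, whose upper bound is below the 1.32 of *Etv5* and the lower bound of 0.73 for *Etv4* in the same libraries. Whether the genes differ in their response in I/M was not tested as a contrast of its own. In KO the difference was 0.06 (95% interval -0.35 to 0.46). *Dusp6* reached 5 CPM in M/M libraries alone, so entering this fit already required it to be high there. In the fit with the lower filter, which *Dusp6* passed in all 12 libraries, it rose in M/M by 1.97 against WT (adjusted p = 1.89e-07) and by 1.97 against I/M (adjusted p = 3.29e-07).

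The 3 Sprouty genes, which encode inhibitors of signalling from receptor tyrosine kinases to Ras and Raf, each had a pattern of their own. *Spry4*, at chr18:38586247-38601415, was at 0.904, 0.798 and 0.892 CPM in WT, 1.23, 1.30 and 1.03 in KO, 1.47, 1.19 and 1.51 in I/M and 2.78, 2.65 and 2.64 in M/M libraries. Its counts ran from 38 to 46 in WT and from 222 to 244 in M/M libraries, and every library of the other 3 genotypes lay above every WT library. In the fit with the lower filter it rose 3.05-fold in M/M (log2 1.61, SE 0.14, adjusted p = 2.56e-07) and 1.60-fold in I/M (log2 0.68, SE 0.15, adjusted p = 0.00334). *Spry4* reached 1 CPM in no WT library, so these p-values are not independent of that filter. Without a filter the log2 value in M/M against WT was 1.62. The KO difference of 0.46 did not pass (SE 0.15, adjusted p = 0.132), and M/M exceeded I/M by 0.93 (adjusted p = 3.39e-05). Without I/M replicate 3 the I/M value was 0.61 (adjusted p = 0.0154).

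*Spry2* was at 14.8, 13.8 and 15.2 CPM in WT, 15.3, 14.9 and 13.5 in KO, 15.5, 15.9 and 16.6 in I/M and 18.0, 17.6 and 17.3 in M/M libraries. The M/M libraries were the highest, by a small margin. It rose by 0.27 on the log2 scale in M/M against WT (SE 0.05, adjusted p = 7.66e-04). The I/M difference of 0.13 did not pass (adjusted p = 0.0850). M/M against I/M was at the edge, at 0.14 (adjusted p = 0.0453), and it missed the threshold under DESeq2 (adjusted p = 0.0552) and with a minimum of 1 CPM (adjusted p = 0.0863). Leaving out 1 library ended the call in 6 of 12 cases, among them each of the 3 M/M libraries.

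*Spry1*, the Sprouty gene with the highest level per kilobase in WT lenses, was the member that changed in KO. It was at 40.9, 38.8 and 34.7 CPM in WT and 27.9, 25.1 and 26.7 in KO libraries. It was at 40.8, 40.8 and 36.0 CPM in I/M and 32.3, 33.3 and 33.0 in M/M libraries. The KO libraries lay below all others, and those of I/M overlapped WT. *Spry1* fell 1.44-fold in KO (log2 -0.52, SE 0.07, adjusted p = 3.83e-04), and 11.9% of all tested genes had every KO library below every WT library. This call held in each fit that left out 1 library. In M/M the log2 difference from WT was -0.21 (SE 0.07, adjusted p = 0.0124), which turned to 0.30 with library-size scaling alone and did not pass without WT replicate 1 (-0.16, adjusted p = 0.0584). Against I/M it was -0.25 (adjusted p = 0.00551), which became 0.06 with library-size scaling alone. In I/M *Spry1* differed from WT by 0.04 (95% interval -0.10 to 0.18).

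Across the 12 libraries the members shared patterns to different degrees, which are described here by Pearson's r of log2 CPM over points that share genotype, library depth and scaling. *Etv4* had r = 0.93 with *Etv5* and 0.92 with *Dusp6*, while *Etv5* and *Dusp6* had r = 0.76. *Fgfr2* ran opposite to *Etv5* (r = -0.98) and *Fgfr3* opposite to *Etv4* (r = -0.95). *Spry1* had r = 0.07 with *Etv4* and 0.25 with *Etv5*, and *Etv1* had r = -0.49 with *Etv5*. Among all tested genes the closest in pattern were *Orai1* for *Fgfr1* (r = 0.98), *Susd4* for *Fgfr2* (0.99) and *Chfr* for *Fgfr3* (0.99). They were *Tctn1* for *Etv1* (0.93), *Grina* for *Etv4* (0.997) and *Chrdl1* for *Etv5* (0.997). For the inhibitors they were *Ccn1* for *Dusp6* (0.99), *Rhobtb2* for *Spry1* (0.92) and *Atg5* for *Spry2* (0.97).

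The rest of the pathway was followed through 8 lists of genes, 65 of which passed the filter of 5 CPM. In M/M against WT 35 of the 65 rose and 12 fell, where 31.4% of all tested genes rose and 31.4% fell, and with library-size scaling alone 57 rose and 3 fell. *Ets1* and *Flt1* reached 5 CPM in M/M libraries alone, so passing the filter already required them to be higher there, and without them 33 of 63 rose and 12 fell. These 63 still hold genes that passed through libraries of both mutants alone. *Fgf12*, *Elk3* and *Spred2*, for example, were below 5 CPM in every WT and KO library, so passing already favoured their rise. In I/M 21 rose and 9 fell, beside 32.6% of all genes called in either direction. In KO 1 rose and 2 fell, beside 4.36% of all genes.

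**Figure D3:**
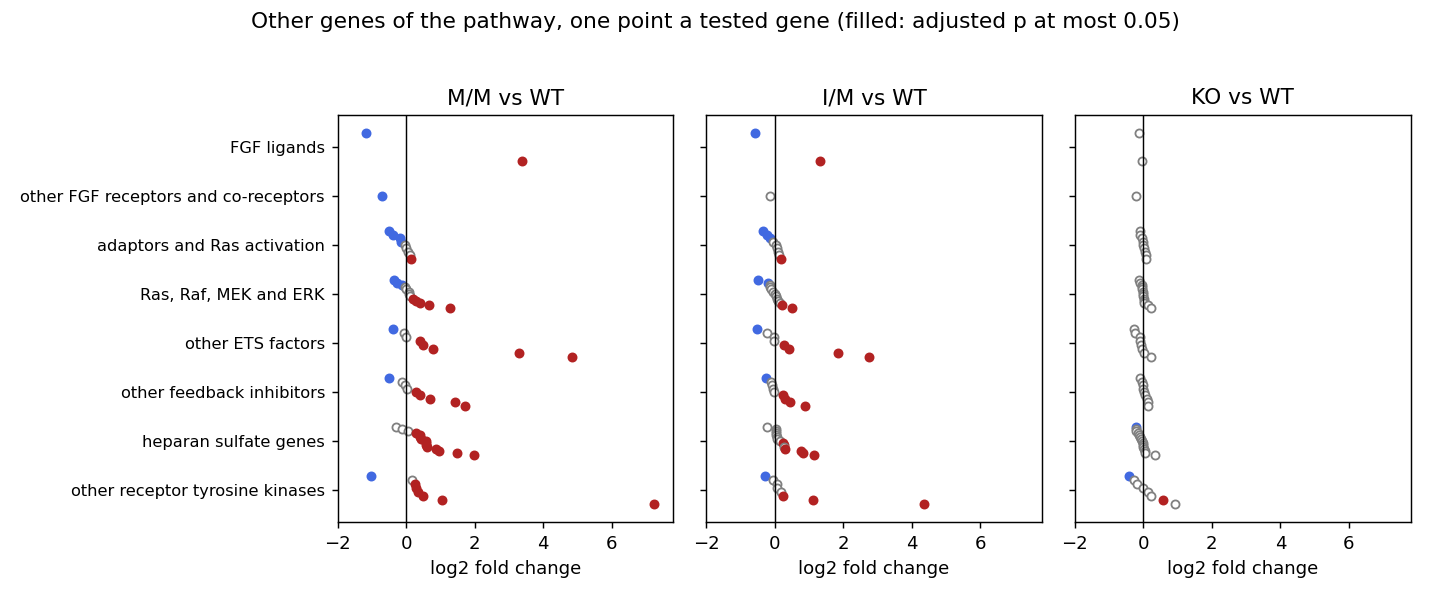
Log2 fold change (horizontal axis) of each tested gene of the 8 lists (rows) in the 3 comparisons with WT. Filled red points were higher and filled blue points lower at an adjusted p of at most 0.05. The 2 points farthest right in M/M are *Flt1* and *Ets1*, and points in KO lie near 0.

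Of 22 genes named as FGFs, 2 passed the filter. *Fgf1*, which encodes a ligand for all FGF receptors, fell from 5.38 ± 1.13 CPM in WT to 3.60 ± 0.753 in I/M and 2.40 ± 0.250 in M/M lenses (log2 -1.16, SE 0.18, adjusted p = 6.35e-05 in M/M). *Fgf12* rose from 2.04 ± 0.346 CPM to 5.09 ± 0.528 and 21.1 ± 1.42 (log2 3.37, SE 0.11, adjusted p = 3.83e-11). It passed the filter through mutant libraries alone, so its p-value is not independent of that selection. FGF12 is an intracellular relative known for binding sodium channels and does not act as a secreted ligand, and *Fgf1* was the only tested gene of a secreted FGF. *Fgf2*, another classical lens ligand, was too low to be tested, with counts of 5 to 7 in WT, 13 to 23 in KO, 6 to 16 in I/M and 21 to 31 in M/M libraries. In CPM it was at 0.0983 to 0.147 in WT, 0.243 to 0.416 in KO, 0.0865 to 0.194 in I/M and 0.263 to 0.350 in M/M, so that the KO and M/M libraries lay above those of WT. *Fgfrl1*, which encodes a receptor without a kinase domain, fell in M/M from 263.6 to 161.4 CPM (log2 -0.71, adjusted p = 6.97e-07), and *Fgfr4* was at most at 0.163 CPM.

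Genes that act between receptor and ERK moved in both directions in M/M, where 31.4% of all tested genes rose and 31.4% fell. Of 9 tested genes for adaptors and Ras activation 1 rose and 4 fell in M/M, and their median on the log2 scale was -0.05. *Frs2*, the FGF receptor adaptor, rose by 0.14, and *Shc1* (-0.50), *Sos2* (-0.38) and *Grb2* (-0.19), which link receptors to Ras, fell. Of 13 genes for Ras, Raf, MEK and ERK 5 rose and 3 fell, with a median of 0.09. The Ras relatives *Rras* (1.28) and *Rras2* (0.40) and the MEK1 gene *Map2k1* (0.67) rose, and *Braf* (-0.27) and *Map2k2* (-0.13) were among those that fell.

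Among 8 other ETS factor genes 5 rose and 1 fell in M/M, or 4 of 7 and 1 without *Ets1*. These counts and those of the inhibitors below stand beside 31.4% of all tested genes that rose and 31.4% that fell. *Ets1* rose from 0.264 ± 0.110 CPM in WT to 1.78 ± 0.677 in I/M and 7.56 ± 0.762 in M/M lenses (log2 4.84, SE 0.32, adjusted p = 2.88e-08), and *Elk3* rose from 2.34 ± 0.160 to 8.37 ± 0.427 and 22.9 ± 1.47 (log2 3.29, SE 0.09, adjusted p = 1.20e-11). Both genes passed the filter through mutant libraries alone, so these p-values are not independent of that selection. ETS1 and ELK3 are both known for roles in blood vessel endothelium. *Erf*, a repressor regulated by ERK, rose by 0.79, and *Gabpa* fell by 0.39 on the log2 scale. Among 9 other feedback inhibitors 5 rose and 1 fell. *Dusp4*, a nuclear ERK phosphatase gene, was at 6.46 to 7.69 CPM in WT, 10.4 to 14.5 in I/M and 21.3 to 23.8 in M/M libraries and rose in both mutants (log2 1.71, SE 0.11, adjusted p = 2.27e-08). *Spred2*, whose product restrains Ras to Raf signalling, rose by 1.43 and *Dusp7* by 0.68, while *Spry3* fell by 0.50 on the log2 scale.

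Heparan sulfate genes, whose products carry the sugar chains needed for FGF binding, gave 12 of 15 tested genes that rose in M/M, with a median of 0.57. Of all tested genes 31.4% rose and 31.4% fell in M/M, which holds for the kinase list below as well. *Sdc3* (1.47) and *Sdc1* (0.96), which encode syndecan core proteins, and *Sulf2* (1.99), which encodes an enzyme that removes sulfate from the chains and is known to lower FGF signalling, rose most. Of 8 other receptor tyrosine kinase genes 6 rose and 1 fell, or 5 of 7 and 1 without *Flt1*. *Flt1*, which encodes a VEGF receptor, was at 0.0197 to 0.105 CPM in WT and 8.14 to 10.8 CPM in M/M libraries. *Tek* (1.05), an angiopoietin receptor gene, and *Pdgfrb* (0.51), a pericyte gene, also rose, and *Pdgfra*, a gene of the lens epithelium, fell by 1.03 on the log2 scale. *Pdgfrb* rose in KO as well (0.56, adjusted p = 0.0155) and did not pass in I/M (0.17, adjusted p = 0.300).

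Markers of other cells moved with these results. The counts of called markers stand beside 31.4% of all tested genes that rose in M/M and 32.6% called in either direction in I/M. The summed level of 7 vascular endothelium markers was 13.8 to 16.2 CPM in WT, 13.6 to 14.8 in KO, 23.9 to 29.2 in I/M and 50.0 to 58.6 in M/M libraries, and 4 of the 5 tested markers rose in each mutant genotype, with *Egfl7* lower in I/M. Of these, *Pecam1*, *Cdh5* and *Cldn5* passed the filter through the M/M libraries alone, and 1 of the other 2 rose in each. Outside M/M most of the vascular sum was *Tek* and *Egfl7*. *Tek* was at 5.70 ± 0.841 CPM in WT, 12.5 ± 0.962 in I/M and 11.8 ± 0.760 in M/M, and *Egfl7* at 7.78 ± 0.509, 6.32 ± 0.533 and 8.12 ± 0.855. For 6 markers of pericytes and smooth muscle the sums were 73.8 to 89.9, 65.9 to 71.7, 97.5 to 123.4 and 225.9 to 313.3 CPM in the same order, with 4 of 4 tested markers raised in M/M and 3 of 4 in I/M. *Cspg4* passed the filter through M/M alone and *Rgs5* through mutant libraries alone, so passing already favoured their rise. Most of the pericyte and smooth muscle sum was *Acta2*, at 68.3 ± 6.76 CPM in WT, 49.4 ± 2.84 in KO, 90.5 ± 15.7 in I/M and 211.6 ± 42.2 in M/M. For 4 fibroblast markers the sums were 3.92 to 4.62, 3.79 to 4.40, 3.26 to 3.99 and 45.3 to 97.8 CPM, and *Lum* was at 0 in all WT and KO libraries. Most of the fibroblast sum outside M/M was *Col1a2* (3.79 to 4.46 CPM in WT, 2.76 to 3.53 in I/M). The lower *Col1a1* was at 0.119 to 0.138 CPM in WT and 0.231 to 0.404 in I/M, and *Dcn* at 0.0197 to 0.0420 and 0.0944 to 0.122, so both were above WT in every I/M library. For 6 macrophage markers they were 0.278 to 0.357, 0.217 to 0.299, 0.678 to 0.809 and 6.73 to 12.4 CPM, none of the 6 passing the filter, and *Ptprc* was at 0 in all WT libraries. Astrocyte and Muller glia sums were 34.0 to 35.6 CPM in WT and 45.4 to 46.7 in M/M, photoreceptor sums 0.525 to 0.674 and 1.26 to 3.59, and red blood cell sums 1.14 to 11.7 and 12.2 to 14.8. The 1 tested red blood cell marker, *Hba-a2*, did not pass in M/M (log2 1.11, adjusted p = 0.135). Of the 3 tested glial markers only *Glul* rose in M/M, from 7.29 ± 0.351 to 21.3 ± 0.374 CPM. *Gfap* fell (log2 -0.19, adjusted p = 0.0148), and *Aqp4* did not pass (-0.19, adjusted p = 0.0861). Pigmented cell sums were 3.09 to 3.63 CPM in WT, 5.32 to 6.17 in I/M and 2.89 to 3.46 in M/M, and cornea epithelium sums were 0.0197 to 0.0396 in WT and 0.0750 to 1.57 in M/M. *Krt5* of the cornea list, at 0.0125 to 1.19 CPM in M/M and 0.0197 to 0.0396 in WT, overlapped. Apart from the pigmented cells, the lists outside the lens had higher mean sums in M/M than in WT. This stands alongside the rise of *Etv4*, *Etv5*, *Dusp6*, *Spry4* and *Fgfr1*, and the part of these cells in those results was not tested.

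Lens markers were abundant in every library and moved the other way. The sum of 7 lens fiber markers was 32623 to 34863 CPM in WT, 32103 to 33596 in KO, 27384 to 29267 in I/M and 17107 to 19735 in M/M libraries. The sum of 5 lens epithelium markers was 482.2 to 530.1, 510.2 to 534.2, 440.9 to 485.4 and 342.0 to 363.2 CPM. All 7 fiber markers and 3 of 5 epithelium markers fell in M/M, beside 31.4% of all tested genes. Among them was *Foxe3*, an epithelial transcription factor gene, which fell from 90.8 ± 14.0 to 19.2 ± 1.81 CPM. These falls stand beside those of *Fgfr2* and *Fgfr3*, and their part in them was not tested. In KO, where *Spry1* fell, the lens sums overlapped those of WT, and the epithelium markers *Cdh1* (-0.31) and *Pdgfra* (-0.42) fell while *Slc7a8* rose (0.40).

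**Figure D4:**
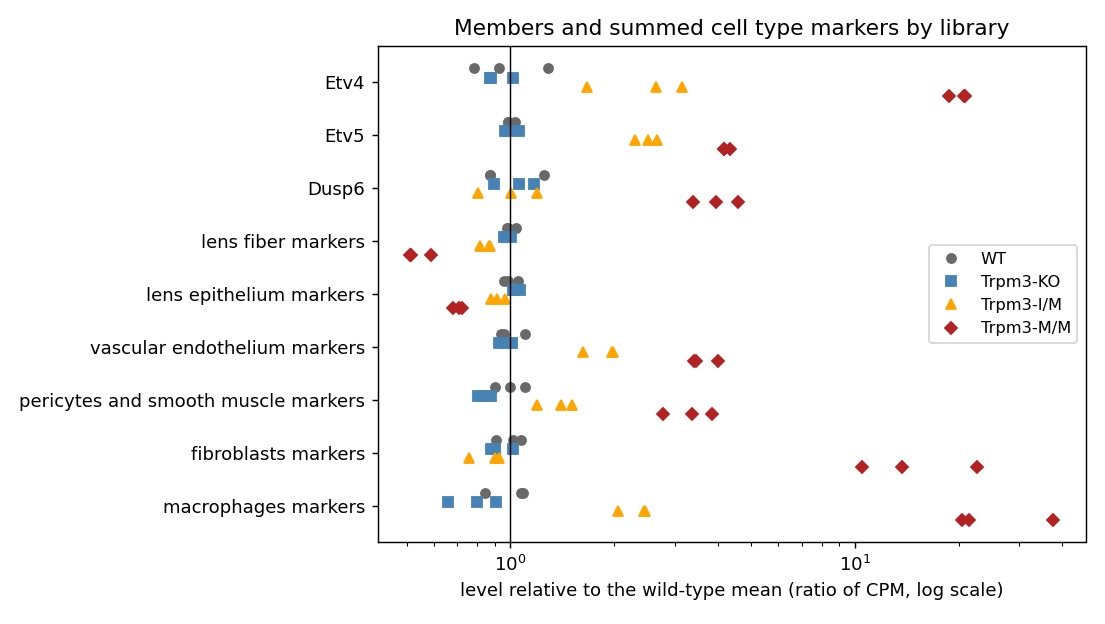
Level in each library divided by the WT mean (log axis) for *Etv4*, *Etv5* and *Dusp6* and for the summed CPM of 6 lists of cell type markers. Points are libraries, and the vertical line marks the WT mean. The vascular, pericyte and smooth muscle, and macrophage sums are raised in I/M and more so in M/M, fibroblast sums in M/M, and the lens sums are lowered in M/M. Most of the pericyte and smooth muscle sum is *Acta2*, and most of the vascular sum outside M/M is *Tek* and *Egfl7*.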

How the data were processed

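Poly-A RNA of P7 mouse lenses was sequenced in 12 libraries of 4 genotypes, and the groups follow the sample labels. Per the study's methods, the authors used bcl2fastq2 2.20 and DRAGEN 3.9.3-8 with the Ensembl release 101 assembly (mm10), and deposited estimated counts, 1 column for each library and without normalization. Of these values, 88.4% were whole, and 168 of 55487 identifiers were listed more than once with equal values and used once. A second deposited table, with the authors' fold changes and p-values, was not used. Counts were rounded. Genes with at least 5 CPM in at least 3 libraries (8984 of 32266 with a count) were scaled with TMM factors and fitted in edgeR 4.0.16 (R 4.3.3) by the quasi-likelihood test, all 12 libraries together with genotype as factor, with Benjamini-Hochberg adjustment over all tested genes. Thresholds were an adjusted p of 0.05 and a fold change of 2, as in the study. Standard errors and intervals derive from the F statistic. Pearson's r used log2 CPM with a prior count of 2. Depth was 56162182 to 82090262 counts per library. No 2 replicates agreed within sampling noise.

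Positions and exon lengths are from GENCODE on GRCm38, and upstream sequences from RefSeq, whose table matched 7 of the 10 members. Members and gene lists were chosen with earlier results of these data known. Named are all 10 members, *Trpm3*, the gene closest in pattern to each tested member, cell type markers beside results, and up to 3 genes per pathway list and direction with the largest called fold change in *Trpm3*-M/M, 1 of which is not reported here. *Fgf2*, *Fgfr4*, *Ctbp2* and *Xist* were added after their values were seen. Alternatives were library size only, TMM without the 16 crystallin genes, upper-quartile factors, no filter, 1 CPM, only the genotypes compared, a replicate block, DESeq2 1.42.0 and each library left out with the tested genes kept. The lower filter with each library left out was added after seeing the data. The scripts were tested on simulated data with 200 changed genes.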

Additional observations from a re-analysis of the deposited data

How the results depend on the processing

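Over the members' fold changes in the 4 comparisons, 751 of the alternative values kept their direction and their side of the threshold, 12 lost a call, 5 gained one and 4 reversed. All 4 reversals came with library size only, which moves the median of all genes itself: *Fgfr2* in *Trpm3*-M/M against *Trpm3*-I/M (0.11), *Etv1* (0.49) and *Spry1* (0.30) in *Trpm3*-M/M against WT, and *Spry1* in *Trpm3*-M/M against *Trpm3*-I/M (0.055). That scaling also ended the call of *Fgfr3* in *Trpm3*-M/M (-0.04) and added *Spry1* (0.24) and *Spry2* (0.33) in *Trpm3*-I/M. *Etv4*, *Etv5* and *Dusp6* in *Trpm3*-M/M kept both thresholds in every alternative. The members past the adjusted p in *Trpm3*-KO numbered 1 in the reported fit and 2 with the replicate block, which added *Etv1* (0.25, adjusted p = 0.0439). Leaving out 1 library gave 1 to 2 members there (2 without WT replicate 1), 7 to 8 in *Trpm3*-M/M and in *Trpm3*-M/M against *Trpm3*-I/M, and 4 in *Trpm3*-I/M. The pathway count in *Trpm3*-M/M was 45 to 49 without 1 library, 60 with library size only, 64 without a filter and 47 as reported. The replicate numbers did not pair the libraries, since same-numbered libraries deviated with r from -0.26 to 0.15. The block otherwise ended the call of *Spry2* in *Trpm3*-M/M against *Trpm3*-I/M (adjusted p = 0.0689). Depth limits *Etv4* and *Spry4*, whose WT libraries held 12 to 46 counts. The causes of these changes were not tested.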
